A study of Mus musculus with 4 samples.

Results

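Probes of 6 genes for coagulation proteins, Fga, Fgb, Fgg, Serpinc1, F2 and Kng1, were examined on copy number arrays of mouse liver cells. The members were chosen by gene name in the array's own annotation, which gave 9 probes out of 52385 autosomal probes and 6 genes out of 20445 autosomal genes. Probes of other names within 100 kb, 44 in all, served as the local control. The tested material was genomic DNA from liver cells of genotype TAK1LPC-KO_RIP3-_-, in 4 samples, taken from sections that were fixed in formalin and embedded in paraffin. Per the study's title, the cells are TAK1-deficient liver parenchymal cells with an additional Rip3 knockout. The comparison material was 1 pool of normal liver tissue from 4 livers. The driver of the parenchymal deletion, the age and strain of the mice, and the genotype and fixation of the normal livers are not given in the sources used here. Each sample was labelled with Cy5 and hybridised with the Cy3-labelled pool on the same array. No dye swap was made, and any dye effect of a probe is still part of the value. The labels do not state that separate animals gave the 4 samples, and p-values then describe the spread among these samples alone, which may be technical. Testing the ratio against 0 leaves out the spread between normal livers.

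Coagulation is a cascade of plasma proteases that ends when thrombin, the active form of prothrombin, cleaves fibrinogen into fibrin. Hepatocytes make and secrete most of these proteins, and some of their genes are among the most strongly transcribed in liver. Fga, Fgb and Fgg encode the alpha, beta and gamma chains of fibrinogen and lie beside each other on chromosome 3. F2 encodes prothrombin. Serpinc1 encodes antithrombin, the main plasma inhibitor of thrombin. Kng1 encodes kininogen, whose high-molecular-weight form is a cofactor of the contact pathway and a source of bradykinin. In genomic DNA an array ratio measures how much DNA of a site was labelled and bound, not its transcription.

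The following probe sequences are shown because the results turn on them. They are the probes of the 3 fibrinogen chains, which lie within 35.0 kb and gave different ratios, and the pair in Serpinc1, which differed in size on every array. They were taken from the deposited scanner files. All letters are lower case because no part of a probe was singled out, and strands are not given in the sources used here.
Fgg, chr3:82813964-82814023 on mm9: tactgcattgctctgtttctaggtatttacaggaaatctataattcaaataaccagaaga
Fga, chr3:82832421-82832480 on mm9: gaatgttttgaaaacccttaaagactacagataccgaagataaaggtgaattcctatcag
Fgb, chr3:82848921-82848980 on mm9: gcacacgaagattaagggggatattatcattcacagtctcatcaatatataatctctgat
Serpinc1, chr1:162908780-162908839 on mm9: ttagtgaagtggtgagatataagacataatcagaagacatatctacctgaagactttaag
Serpinc1, chr1:162932569-162932628 on mm9: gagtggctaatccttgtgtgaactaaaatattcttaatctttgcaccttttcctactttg
The probes of F2 lie at chr2:91465511-91465570 and chr2:91468949-91469000, and those of Kng1 at chr16:23073413-23073472 and chr16:23081723-23081780. An exon annotation of mm9 was not used here. The GC content of the 9 probes was 31.7% to 42.3%, and that of autosomal probes had a median of 36.7% with a 5th percentile of 30.0% and a 95th percentile of 41.8%. None of the 9 was found whole in the RefSeq promoter windows (GRCm38) of 250 bases before to 50 after a gene's start.

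Slide 1 held replicates 1 and 2, and slide 2 held replicates 3 and 4. The sample channel had 84.3% to 89.9% of spots well above background, and the pool channel 94.4% to 97.7%. The scanner software's measure of noise between neighbouring probes, the derivative log ratio spread, was 0.376 to 0.417 and outside its accepted range on all 4 arrays. The 2 targeted genes did not show a loss. Map3k7, which encodes TAK1, lay above the pool at 0.65 ± 0.13 on the log2 scale (SD, n = 4; limma, adjusted p = 0.00192), and Ripk3 gave -0.08 ± 0.06 (SD, n = 4; limma, adjusted p = 0.370). The deleted parts of these genes are not given in the sources used here, and the ratios therefore do not check the labels. All 9 member probes were well above background in both channels on all 4 arrays and none was saturated. With 4 arrays, the precision of every value is limited.

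Of the 6 genes, 3 lay above the pool and past the threshold, Fga, Fgg and Serpinc1, at 1.45-fold to 1.55-fold. Fgb, Kng1 and F2 were not past it, and F2 was the one gene with a mean below the pool. A gene was called at a limma adjusted p under 0.05, taken over all 20445 autosomal genes, and a mean log2 ratio at least 0.25 from 0. Calls were common on these arrays: 16.1% of all autosomal genes were called higher and 19.3% lower, 35.4% in all. The 3 of 6 beside 16.1% is a description, because the members were chosen with earlier results of these data known. The probes of Fga and Fgg also lie 18.5 kb apart at 1 locus, so their calls are not independent.

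Fga, which encodes the alpha chain of fibrinogen, had log2 ratios to the pool of 1.20, 0.82, 0.36 and 0.14 on replicates 1, 2, 3 and 4. Both arrays of slide 1 lay above both arrays of slide 2, and all 4 lay above 0. The mean was 0.63 ± 0.48 (SD, n = 4; limma, adjusted p = 0.0277), a ratio of 1.55-fold, which placed Fga at rank 454 of 20445 genes from the top. The value rests on 1 probe. Without replicate 1 the mean was 0.44 (limma, adjusted p = 0.0671) and without replicate 2 it was 0.57 (adjusted p = 0.0918), so the call was lost in each case. It was also lost when the arrays of a slide were averaged first (limma, adjusted p = 0.0510).

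Fgg, which encodes the gamma chain, had a like pattern over the arrays. Its log2 ratios were 0.88, 0.90, 0.33 and 0.22, again with both arrays of slide 1 above both of slide 2. The mean was 0.58 ± 0.36 (SD, n = 4; limma, adjusted p = 0.0165), or 1.50-fold, from 1 probe. The call was lost without replicate 1 (mean 0.48, limma, adjusted p = 0.0583) and without replicate 2 (mean 0.48, limma, adjusted p = 0.0569).

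Fgb, which encodes the beta chain, gave log2 ratios of 0.20, 0.09, 0.23 and 0.15 at its 1 probe, all above 0. In these ratios its arrays had no order by slide, and the slide difference in other settings is given below. The mean was 0.17 ± 0.06 (SD, n = 4; limma, adjusted p = 0.0712) and did not pass the threshold. The probes of Fga and Fgb are 16.5 kb apart, and those of Fgg and Fga 18.5 kb. Fga minus Fgb was 1.00, 0.73, 0.13 and -0.01 on the 4 arrays, with a mean of 0.46 ± 0.48 (SD, n = 4). Fgg minus Fgb was 0.68, 0.81, 0.10 and 0.07, with a mean of 0.41 ± 0.38 (SD, n = 4). Fga and Fgg thus lay above Fgb by at least 0.68 on slide 1 and within 0.13 of it on slide 2.

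**Figure D1:**
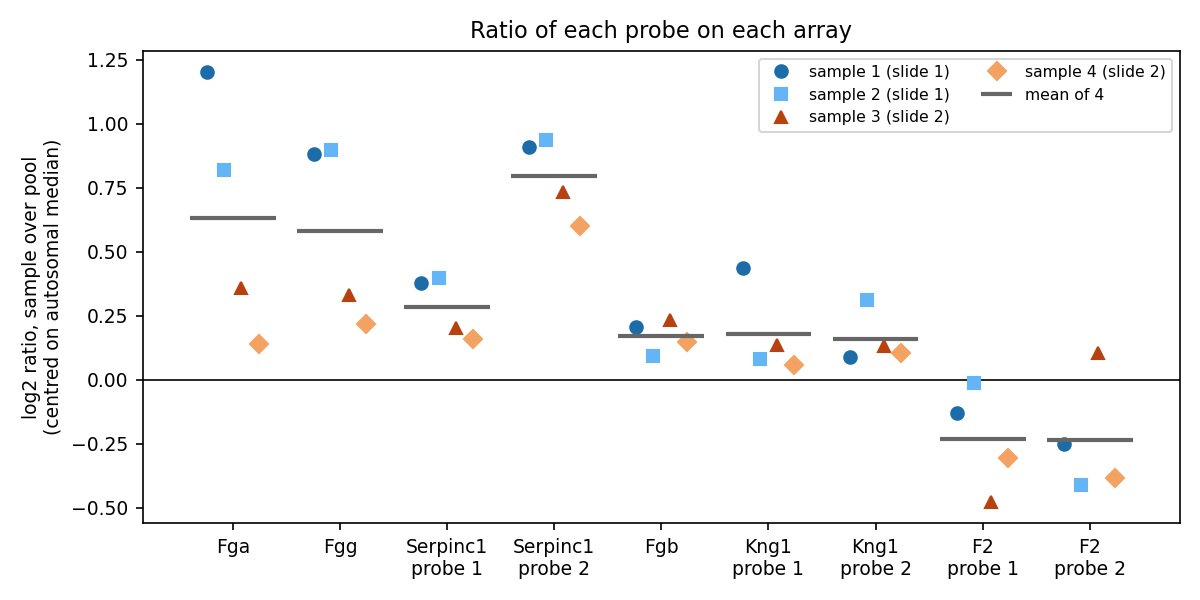
Log2 ratio of sample to pool at each of the 9 member probes, with 1 point per array, coloured by array, and a grey bar at the mean of the 4. Fga and Fgg lie higher on both arrays of slide 1 than on those of slide 2, while Fgb stays between 0.09 and 0.23 on all 4 arrays.

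Serpinc1 was above the pool on every array, with log2 ratios of 0.64, 0.67, 0.47 and 0.38, and here too both arrays of slide 1 lay above both of slide 2. Slide 2 minus slide 1 was -0.23 in these ratios, but -0.05 in the deposited table and -0.07 with the normexp background correction. The mean over its probes was 0.54 ± 0.14 (SD, n = 4; limma, adjusted p = 0.00333), or 1.45-fold. Both probes lay above the pool but at different sizes. The one with the lower coordinates had 0.38, 0.40, 0.20 and 0.16, a mean of 0.28 ± 0.12 (SD, n = 4; limma over all autosomal probes, adjusted p = 0.0396). This probe's call was lost with normexp (0.079, limma, adjusted p = 0.491), in the deposited table (adjusted p = 0.0866) and without any 1 of the 4 replicates (adjusted p = 0.0622 to 0.131). The one with the higher coordinates, 23.8 kb on, had 0.91, 0.94, 0.74 and 0.60, a mean of 0.80 ± 0.16 (SD, n = 4; limma, adjusted p = 0.00212). The second exceeded the first by 0.51 ± 0.05 (SD, n = 4) and did so on 4 of 4 arrays. Among the 9 member probes, 4 were called higher and none lower, against 18.2% called higher and 18.8% lower, 36.9% in all, over all autosomal probes. Leaving out replicate 1, or replicate 2, left 1 of the 9 called. Calls over all 20445 autosomal genes fell too, from 7236 to 5533 and 5464.

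F2 lay below the pool on every array, at -0.19, -0.21, -0.19 and -0.34. The mean of -0.23 ± 0.07 (SD, n = 4; limma, adjusted p = 0.0285) was short of the size limit of 0.25 and F2 was not called. It passed when the arrays were centred on the mode of their ratios, when only probes well above background were used, and with the normexp background correction, at -0.26, -0.25 and -0.29. The adjusted p was above 0.05 in the deposited table (limma, 0.0504), with GC correction (0.0986, mean -0.16), with slide means (0.109) and without any 1 of the replicates (0.0656 to 0.0977). Its probes had means of -0.23 ± 0.20 and -0.24 ± 0.24 (SD, n = 4), and on single arrays they ranged from -0.48 to 0.10.

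Kng1 gave log2 ratios of 0.26, 0.20, 0.13 and 0.08, all above 0 and with slide 1 above slide 2. The mean was 0.17 ± 0.08 (SD, n = 4; limma, adjusted p = 0.0791) and did not pass the threshold. Its probes had means of 0.18 ± 0.18 and 0.16 ± 0.10 (SD, n = 4).

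The choice of background correction changed the sizes. With normexp on the raw spot signals, Fga, Fgg and Serpinc1 stood at 0.35, 0.30 and 0.30 and kept their calls (limma, adjusted p = 0.0420, 0.0144 and 0.00225). Fgb and Kng1, uncalled in both settings, took the other sign there, at -0.15 and -0.04.

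In order of their mean, the genes ran Fga, Fgg, Serpinc1, Fgb, Kng1 and F2. Of the 5 pairs of neighbours in this order, Fga and Fgg differed by 0.05 ± 0.19, Fgg and Serpinc1 by 0.04 ± 0.22 and Fgb and Kng1 by 0.00063 ± 0.10 (SD, n = 4), none beyond its spread. Serpinc1 exceeded Fgb by 0.37 ± 0.17 and Kng1 exceeded F2 by 0.40 ± 0.06, each on 4 of 4 arrays (exact two-sided sign-flip permutation test, p = 0.13, adjusted over the 5 pairs 0.3125). With 4 arrays that p is the smallest the test can give. The order was taken from these same values, so the pairs and their directions followed from it and give it no further support.

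The comparison with probes of other names within 100 kb asks whether a gene differs from the DNA around it on the same array. Counting all other names, 5 of the 6 genes differed from their surroundings past the same threshold, 4 above and 1 below, against 17.0% of 20037 testable genes called above and 15.7% below, 32.7% in all. The count was 1 without replicate 1 and 1 without replicate 2, 3 without replicate 3 or replicate 4, and 3 when the window was 50 kb or 250 kb. Against the pool, calls over all genes also fell with a replicate left out, from 7236 to between 5464 and 5974. Serpinc1 exceeded its surroundings by 1.08, 0.93, 0.68 and 0.43 on the 4 arrays, a mean of 0.78 ± 0.29 (SD, n = 4; limma, adjusted p = 0.00408). With normexp it was 0.43, and the call held under every alternative run. The 13 probes around it had a mean of -0.24. They include probes of Rc3h1, ENSMUST00000064713, Zbtb37, Gas5, Cenpl and Klhl20, and the probe means of all 13 ran from -0.59 to 0.35. None of them was called higher, 3 were called lower, and 4 were too dim to be well above background in the sample on at least 1 array.

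At Kng1 the difference from the surroundings was 0.40, 0.40, 0.21 and 0.27, a mean of 0.32 ± 0.10 (SD, n = 4; limma, adjusted p = 0.0240). This call was lost with normexp (0.098, limma, adjusted p = 0.262), in a window of 250 kb (0.17, adjusted p = 0.111), in the deposited table, with slide means, and without replicate 1, 2 or 4. The 15 probes around it had a mean of -0.15 and a range of -0.75 to 0.44. They belong to Kng2, AF177147, Eif4a2, Rfc4 and Adipoq. Kng2, a paralog that encodes another kininogen, had probe means of 0.14 ± 0.13 and -0.29 ± 0.11 (SD, n = 4). Cross-hybridisation between Kng1 and Kng2 was not tested. F2 lay below its surroundings by -0.20, -0.16, -0.29 and -0.45, a mean of -0.28 ± 0.13 (SD, n = 4; limma, adjusted p = 0.0458). This call was lost without any 1 of the 4 replicates (limma, adjusted p = 0.0794 to 0.147), with GC correction, with slide means, and in windows of 50 kb (-0.19) and 250 kb (-0.245, short of the size limit). Its 12 neighbouring probes, of Ckap5, Zfp408, Arhgap1, Atg13 and Harbi1, had a mean of 0.04 and a range of -0.53 to 0.87, the top being a Harbi1 probe.

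For the fibrinogen genes the surroundings include the other fibrinogen probes. On that basis Fga exceeded its surroundings by 0.48 ± 0.40 (SD, n = 4; limma, adjusted p = 0.0429), a call lost without replicate 1, 2 or 3 and in the deposited table. Fgg exceeded them by 0.42 ± 0.26 (SD, n = 4; limma, adjusted p = 0.0270), a call lost without replicate 1 or 2, with GC correction and in a window of 50 kb (0.18). Fgb gave 0.06 ± 0.27 (SD, n = 4; limma, adjusted p = 0.734), below its surroundings on both arrays of slide 1 and above them on both arrays of slide 2. When fibrinogen names were left out, an alternative chosen after seeing the data, 3 probes remained around each gene. Fgb then exceeded them on every array, by 0.28, 0.20, 0.50 and 0.55, a mean of 0.38 ± 0.17 (SD, n = 4; limma, adjusted p = 0.0200). On the same basis Fga gave 0.62 ± 0.46 and Fgg 0.57 ± 0.33 (SD, n = 4; limma, adjusted p = 0.0254 and 0.0155). The probes concerned are 1 of ENSMUST00000147649 at 0.30 ± 0.04, 2 of Plrg1 at -0.02 ± 0.12 and -0.26 ± 0.12, and 1 of BC042410 at -0.36 ± 0.42 (SD, n = 4). Plrg1 encodes a splicing factor. BC042410, dim in the sample channel on 1 array, takes the place of ENSMUST00000147649 in the surroundings of Fgb. ENSMUST00000147649 and BC042410 were not matched to a RefSeq symbol. The median over the whole of chromosome 3 was -0.03 ± 0.0044 (SD, n = 4), and the medians of chromosomes 1, 2 and 16 were -0.08, -0.07 and 0.02.

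**Figure D2:**
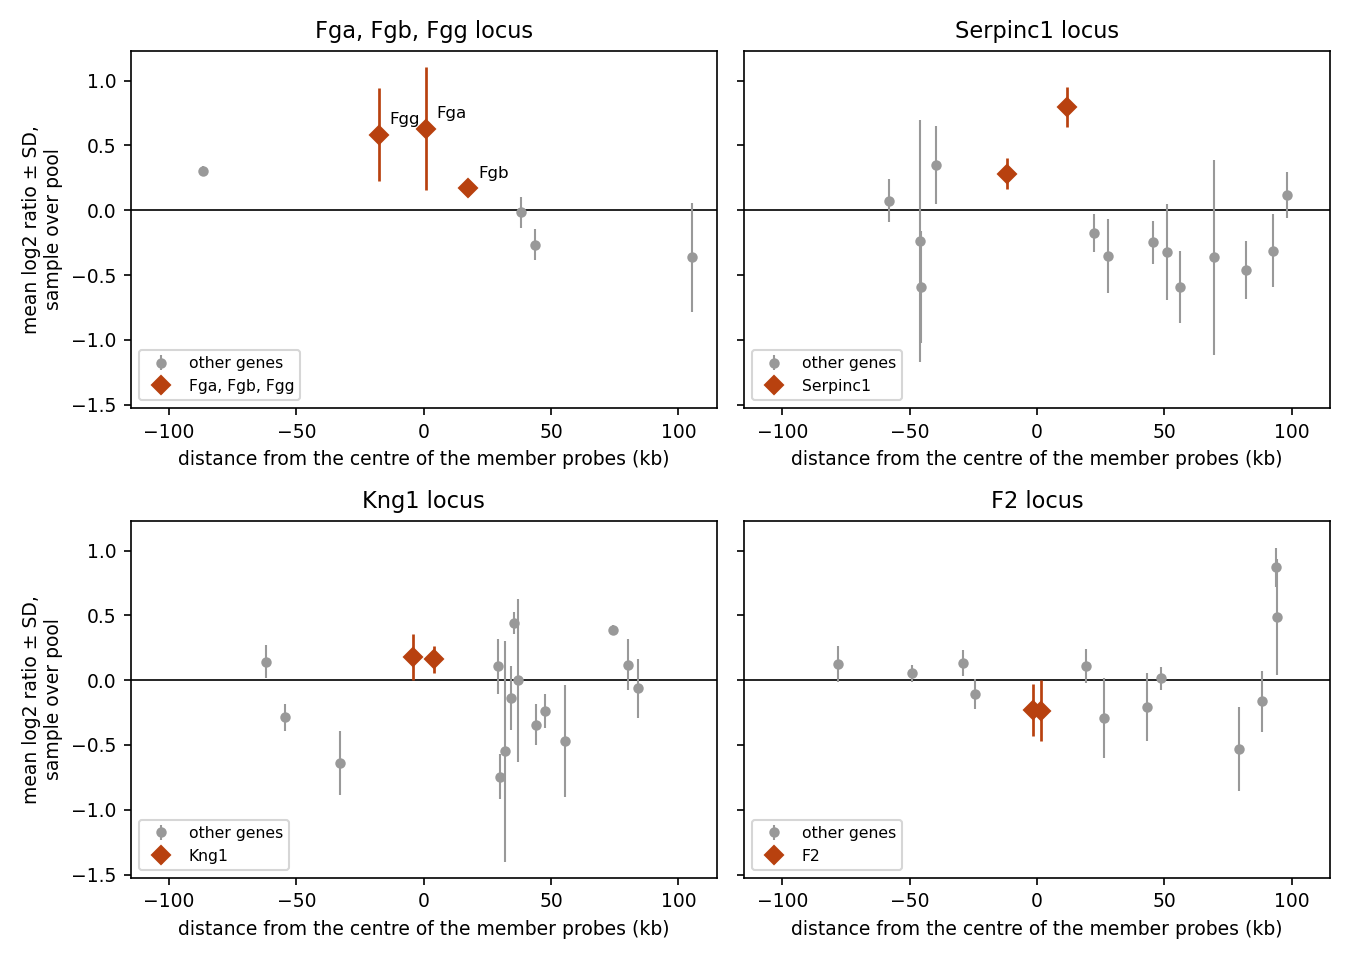
Mean log2 ratio of sample to pool with its SD over 4 arrays for each probe at the 4 loci, by distance in kb from the centre of the member probes, with members set apart by colour from the probes of other names. The fibrinogen probes span 35.0 kb, and at the Serpinc1 locus the highest neighbouring probe has a mean of 0.35 against 0.80 for the higher Serpinc1 probe.

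The difference between the slides was then followed into the 2 channels. In the ratios, slide 2 minus slide 1 was -0.76 for Fga and -0.61 for Fgg. It was -0.23 for Serpinc1, -0.12 for Kng1, -0.06 for F2 and 0.04 for Fgb. The small value of Fgb depended on the processing, with 0.39 in the deposited table and 0.17 with normexp. In these 2 settings Fga gave -0.80 and -0.62, and Fgg -0.505 and -0.39. By limma over all autosomal genes no member had an adjusted p under 0.05, with Fga and Fgg at an adjusted p of 0.439. Across all genes 0 passed the adjusted threshold, 0.00% of 20445, and 10.8% had an unadjusted p under 0.05. Fga and Fgg were among the latter, with unadjusted p of 0.00682 and 0.00272. By absolute size, Fga had rank 260 and Fgg rank 585 among the slide differences of the 20445 genes. Within slide 1 the means were 1.01 for Fga and 0.89 for Fgg, and within slide 2 they were 0.25 and 0.27.

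At the Fga and Fgg probes the sample channel differed little between slides, and the pool channel differed more. As processed signals on the log2 scale over the array's median autosomal probe, Fga had 2.08, 2.00, 2.06 and 1.88 in the sample channel, against 0.86, 1.16, 1.69 and 1.72 in the pool channel. Fgg had 1.90, 2.15, 2.11 and 2.00 in the sample channel, against 1.00, 1.23, 1.77 and 1.77 in the pool channel. The arrays of slide 1 were thus the low ones in the pool channel for both genes, and the slides overlapped in the sample channel. Fgb had 1.92, 1.96, 1.86 and 1.91 in the sample channel, against 1.70, 1.85, 1.62 and 1.75 in the pool channel. Its slides overlapped in the pool channel, and in the sample channel slide 1 lay slightly above slide 2.

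In the sample channel, slide 2 minus slide 1 was -0.07 for Fga and 0.03 for Fgg (limma, unadjusted p = 0.577 and 0.817). In the pool channel it was 0.70 for Fga and 0.65 for Fgg (limma, unadjusted p = 0.00101 and 0.000652, adjusted p = 0.0926 for both). These were the 119th and 164th of 20445 genes by absolute size, where the median absolute slide difference in the pool channel was 0.111 and the 95th percentile 0.386. The adjusted threshold was passed by 0 genes in the sample channel (0.00%) and by 6 in the pool channel (0.0293%), none of them a member. An unadjusted p under 0.05 was reached by 6.43% of genes in the sample channel and by 22.0% in the pool channel. Kng1 was among them in the pool channel, with a slide difference of 0.22 (limma, unadjusted p = 0.0316, adjusted p = 0.188). Serpinc1 and F2 differed more in the sample channel. Slide 2 minus slide 1 was -0.14 for Serpinc1 and -0.20 for F2 there, against 0.09 and -0.14 in the pool channel. Per the labels, all 4 arrays were hybridised with the same kind of pool, and details of its labelling per array are not given in the sources used here. The channels were compared between slides after the ratios had been seen. The part that a difference between slides has in the Fga and Fgg ratios was not tested beyond these values.

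The raw spot signals, before the scanner software's corrections, carry the overall brightness of each array. At the Fga probe they were 430, 430, 452 and 420 in the sample channel, against 346, 610, 682 and 487 in the pool channel. The median raw signal over all spots was 155, 160, 164 and 165 in the sample channel, against 231, 334, 278 and 209 in the pool channel. At the Fgb probe the raw signals were 417, 460, 436 and 452 in the sample channel, against 570, 1020.2, 746 and 531 in the pool channel. On replicate 1 the Fga probe was thus brighter in the sample than in the pool, and the Fgb probe dimmer, while on replicates 2, 3 and 4 both were dimmer in the sample than in the pool. The higher Serpinc1 probe had 496, 532, 540 and 517 in the sample channel, against 449, 691, 649 and 453 in the pool channel.

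**Figure D3:**
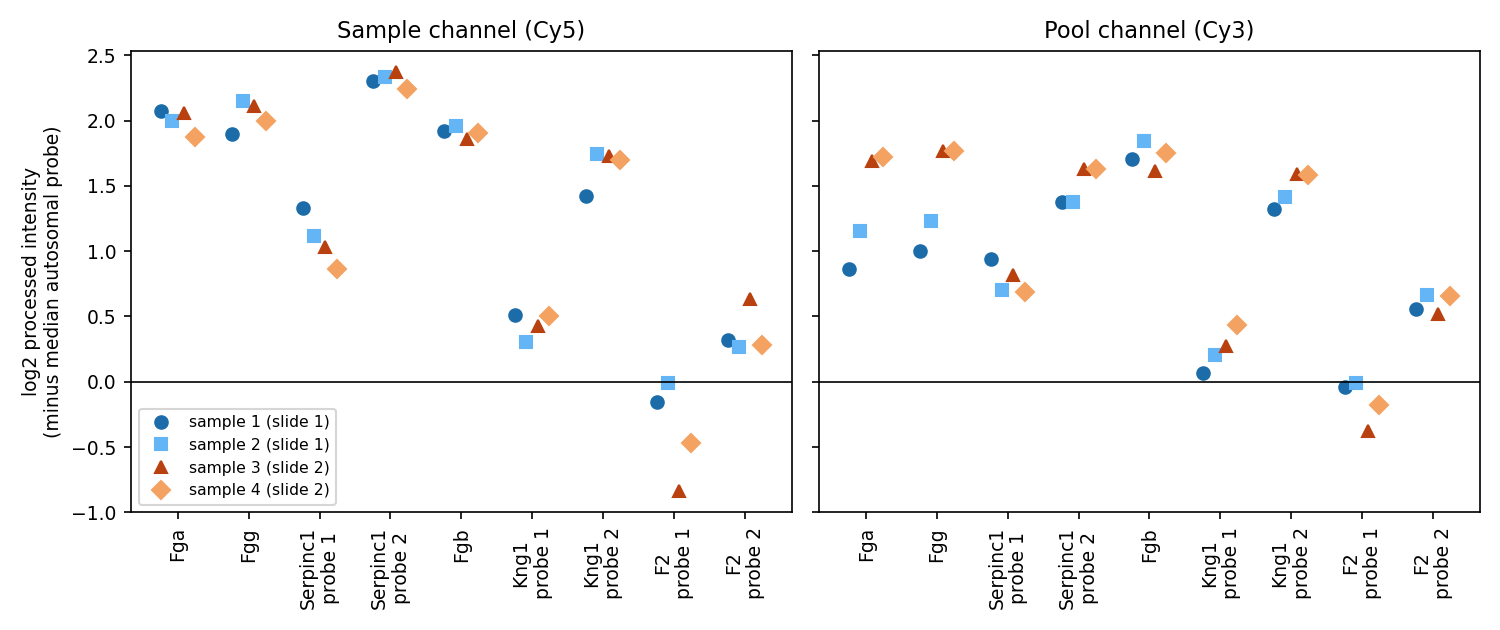
Processed signal of the member probes in the sample channel and the pool channel, as log2 over the array's median autosomal probe, with 1 point per array. Fga and Fgg overlap between slides in the sample channel (1.88 to 2.15 over all 4 arrays) and are lower in the pool channel on slide 1 (0.86 to 1.23) than on slide 2 (1.69 to 1.77).

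**Figure D4:**
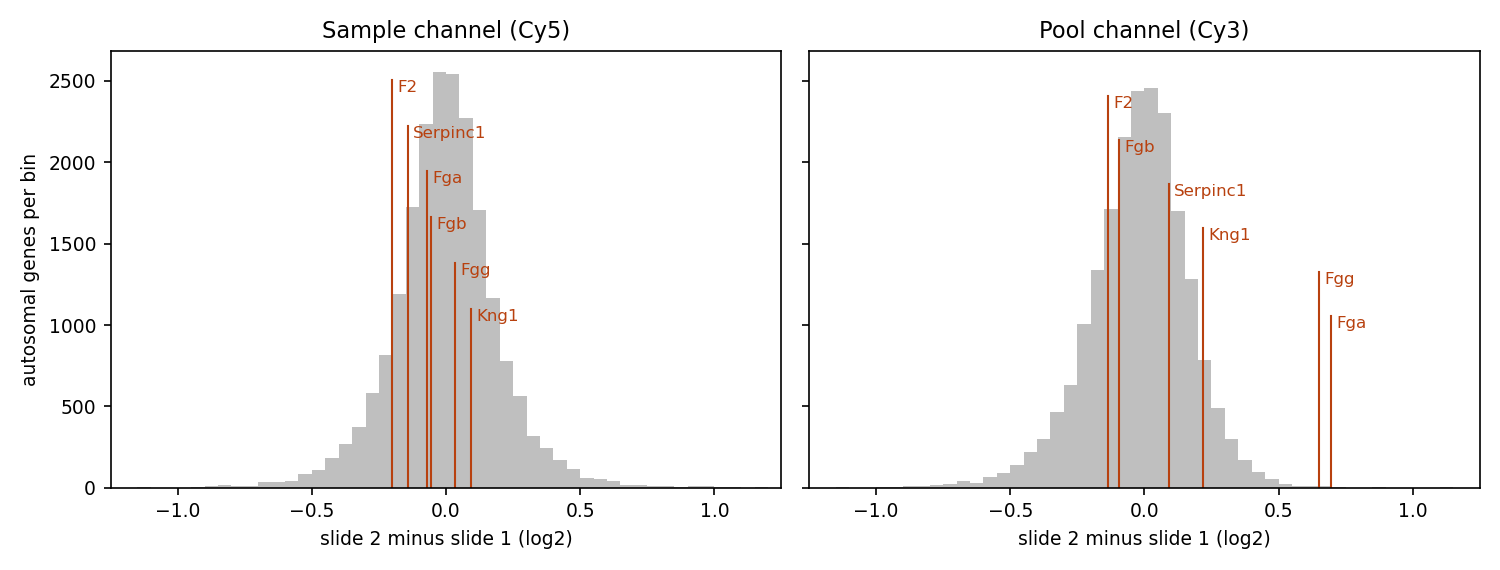
Distribution over 20445 autosomal genes of slide 2 minus slide 1, in log2 units, for the sample channel and for the pool channel, with the 6 members marked. In the pool channel Fga and Fgg, at 0.70 and 0.65, lie beyond the 95th percentile of absolute differences, 0.386.

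The wider system was described through 60 genes of coagulation, fibrinolysis, vessel wall and platelets, of which 53 autosomal genes had probes. F8 and F9 lie on chromosome X, and Fgl2, Klkb1, Serpind1, F2rl2 and Gp6 had no probe of that name. Past the threshold, 21 genes lay above the pool, 8 lay below and 24 were not called, against 16.1% called higher and 19.3% lower over all genes. The median of the 53 was 0.17, and that of all autosomal genes was -0.01. The list, like the 6 members it holds, was chosen with earlier results of these data known. Its counts are therefore a description, also where the members are left out.

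Genes whose products come mainly from hepatocytes had 15 of 23 higher and 2 lower, with a median log2 ratio of 0.38. Over all autosomal genes 16.1% were called higher and 19.3% lower. Without the 6 members this was 12 of 17 higher and 2 lower, with a median of 0.38. Of the 12, F10, Proz, F11 and Fgl1 lie on chromosome 8, as does F7, which was not called. A correction for the regional level took these 4 to 0.94, 0.42, 0.10 and 0.10, and the count to 9 of 17. Genes expressed elsewhere or in many cell types had 6 of 30 higher and 6 lower, with a median of -0.01. This division by site of synthesis is textbook background and was not measured in these DNA samples. The difference between both groups was not tested.

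By role, the vitamin K dependent factors had 3 of 6 higher and 1 lower. F10, the factor whose active form converts prothrombin to thrombin, gave 1.10 ± 0.08, but its probes disagreed, with means of -0.04 and 2.25. Proz, which encodes protein Z, gave 0.59 ± 0.06, and Proc, which encodes the anticoagulant protein C, gave -0.55 ± 0.09 (SD, n = 4 for each). The probes of Proz had means of 0.20 and 0.97. Of fibrinogen and its relatives 3 of 4 were higher, or 1 without replicate 1 or replicate 2, and the third besides Fga and Fgg was Fgl1, a hepatocyte protein of the fibrinogen family, at 0.38 ± 0.16 (SD, n = 4). A correction for the regional level took Fgl1 to 0.10 and out of the calls.

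Cofactors and contact factors had 2 of 5 higher and 1 lower, with 1 higher after the regional correction, with slide means and without replicate 1, 3 or 4. F5, the cofactor of activated factor X, gave 0.51 ± 0.06 with 5 probes from -0.10 to 1.37, and F11 gave 0.35 ± 0.20 (SD, n = 4 for each). F12, the factor that starts the contact pathway, gave 0.01, -0.83, -0.39 and -0.41 on the 4 arrays, a mean of -0.41 ± 0.34 (SD, n = 4; limma, adjusted p = 0.0470). Its 1 probe was well above background in the sample on 3 of 4 arrays, so F12 has no value when dim probes are left out. The call was lost without replicate 2 (mean -0.26), without replicate 3 or replicate 4 (limma, adjusted p = 0.11 for both), and with the slide as a block (adjusted p = 0.0538). It was also lost in the deposited table (mean -0.28) and with normexp (mean -0.09). F11 was at 0.10 and uncalled after the regional correction. In fibrin crosslinking 1 of 3 was higher, F13b, the carrier subunit of factor XIII, at 1.03 ± 0.11 (SD, n = 4), with probe means of 0.32 and 1.73.

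Among the inhibitors 6 of 11 were higher and none lower, and with normexp 3 were higher and 1 lower. The higher ones in both settings include Pzp, a broad protease inhibitor of plasma, at 0.73 ± 0.15 and Serpina5, the protein C inhibitor, at 0.39 ± 0.06 (SD, n = 4 for each). The probes of Pzp had means of 0.32 and 1.13. In fibrinolysis 3 of 5 were higher. Plg, which encodes plasminogen, gave 0.52 ± 0.07, and Plat, its tissue activator, gave 0.52 ± 0.06 (SD, n = 4 for each). Plat fell to 0.21 with normexp, below the size limit. Hrg, a plasma glycoprotein that binds plasminogen, gave 1.61 ± 0.19 (SD, n = 4). One of its probes was not well above background in the pool on any array, so this mean rests partly on dim pool signals, and the other probe alone gave 1.06. With only probes well above background, on arrays centred anew, Hrg stood at 1.04, and with normexp at 0.86.

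Of the vessel wall and platelet genes 0 of 15 were higher and 5 were lower, and with normexp 3 were higher and 7 lower. In the deposited table, with GC or regional correction, and without replicate 2 or replicate 3, 1 was higher. With only probes well above background 12 of these genes had a value, of which 1 was higher and 5 lower. Adamts13, the protease that cleaves von Willebrand factor, gave -1.20 ± 0.10 and stood at -1.95 in the deposited table. Procr, the endothelial receptor of protein C, gave -0.50 ± 0.24 and F2rl3, a thrombin receptor, -0.49 ± 0.21 (SD, n = 4 for each). F2rl3 was at -0.20 and uncalled after a correction for GC content. The vitamin K cycle and secretion genes had 3 of 4 higher and 1 lower. Mcfd2 and Lman1, which form a cargo receptor for factors V and VIII, gave 0.49 ± 0.15 and 0.49 ± 0.17, and Vkorc1, the target of warfarin, gave -0.57 ± 0.19 (SD, n = 4 for each). On chromosome X, whose median was -0.86 ± 0.02, F8 gave -0.76 ± 0.13 and F9 -0.18 ± 0.18 (SD, n = 4 for each). Relative to that median they stood at 0.10 ± 0.12 and 0.68 ± 0.17 (SD, n = 4).

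**Figure D5:**
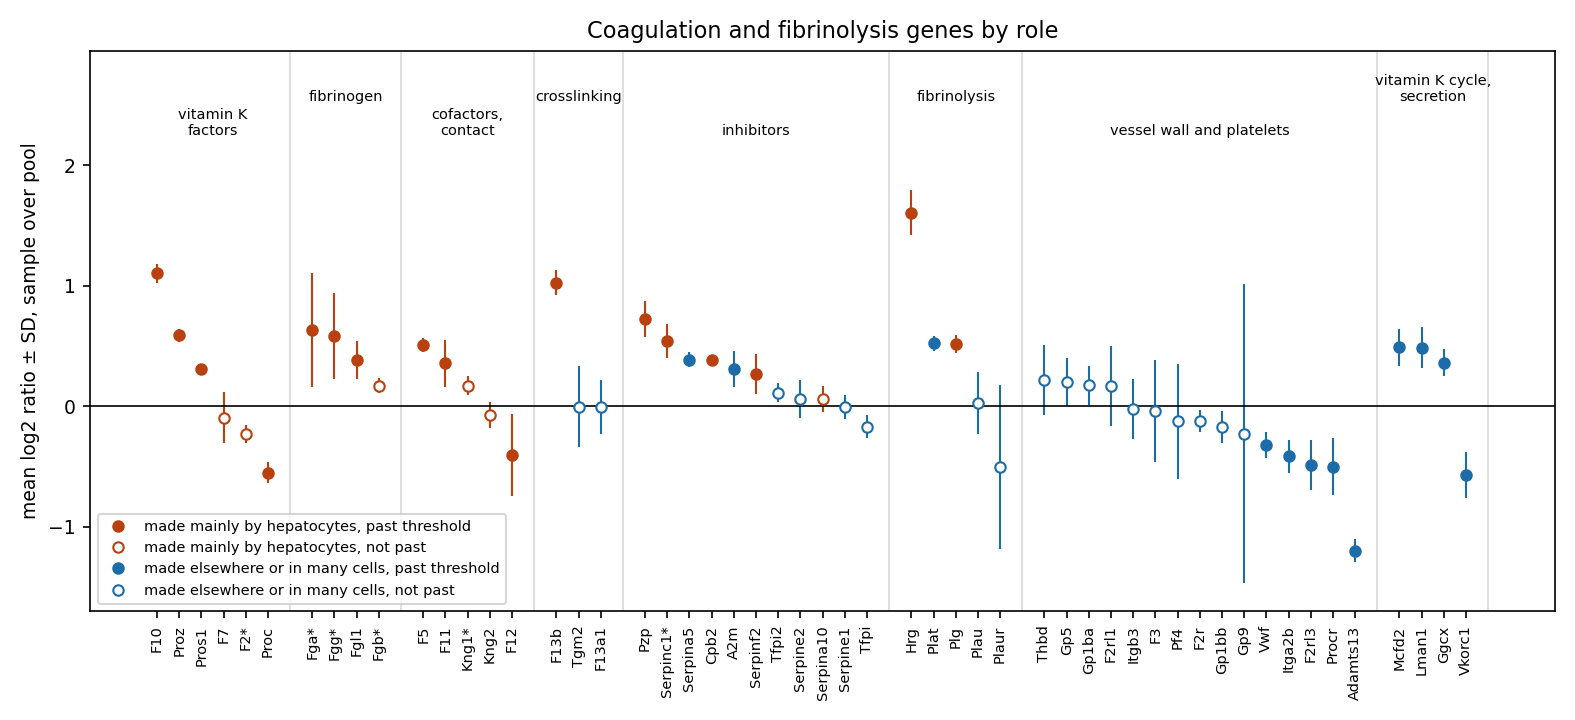
Mean log2 ratio of sample to pool with its SD over 4 arrays for the 53 autosomal list genes, grouped by role, with filled points for genes past the threshold, red for genes whose products come mainly from hepatocytes and blue for the others. No vessel wall or platelet gene is called higher, while 6 of 11 inhibitors are, and with normexp these counts are 3 of 15 and 3 of 11.

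The genes most like each member over the 4 arrays were found by the smallest Euclidean distance of their log2 ratios, among genes off the list and over 1 Mb away. A like order of the arrays follows from this choice. The distance is not scaled by the spread, which among the members was largest for Fga and Fgg (SD 0.48 and 0.36, n = 4). For Fga the nearest genes were Cnpy1 (distance 0.150) and ENSMUST00000070814 (0.254), both with the same order of the arrays as Fga. For Fgg they were ENSMUST00000120321 (0.134) and 4930528F23Rik, now Meiob (0.152). For the other members the distances were smaller, with Hpd (0.0335) and Cyfip1 (0.0342) for Fgb, ENSMUST00000153402 (0.0511) and Eed (0.0591) for Serpinc1, Lca5l (0.0298) and ENSMUST00000150034 (0.0543) for F2, and Cadps (0.0124) and Wdr64 (0.0425) for Kng1.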

How the data were processed

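Genomic DNA of 4 samples and 1 pool was measured on 2-colour Agilent arrays of 62976 spots, 3924 of them controls. The deposited intensity values come from Agilent's scanner software, Feature Extraction, in version 10.10.1.1 as the headers give it. Per the file headers, they include mean spot signals, and processed signals after background subtraction, detrending and linear dye normalisation, in which dim spots carry surrogate values. Probe positions are on mm9, per the file headers. The deposited log10 ratio column holds processed Cy5 over processed Cy3, per the file headers, and was used as a check. Over non-control spots without a surrogate value in either channel it differed by at most 4.1e-07. A deposited log2 table of the same arrays served as an alternative. It correlated at 0.912 to 0.923 with the scanner ratios over 54557 probes and its columns had medians of -0.035, 0.029, 0.052 and 0.005. Its sign and scale were read from that comparison, and its normalisation steps are not given in the sources used here.

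Here log2 of processed Cy5 over processed Cy3 was taken, spots that were controls or marked as outliers were dropped, repeat spots were averaged per probe, and the median autosomal probe of each array was set to 0, with no loess or quantile step. Of 54669 probes on all 4 arrays, 52385 were autosomal. A gene's value is the mean of its probes. Tests used limma 3.58.1 in R 4.3.3 (lmFit, eBayes) with Benjamini-Hochberg adjustment over all autosomal genes or probes, and the script was tested on simulated data. Surroundings were the mean of probes of other names within 100 kb. Slides were read from the file headers. Gene symbols are those of the array's design. Of 84 names looked up in the RefSeq table (GRCm38, names only), 75 were symbols, 1 a synonym and 8 unmatched.

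The members and lists were chosen with earlier results of these data known. The genes named are the 2 targeted genes, the members, genes of the surrounding probes (1 of them is not reported here), up to 3 called genes per role by absolute mean and the 2 most like genes per member. List genes on chromosome X, which were not in the fit, were named besides. Alternatives were the background correction, the deposited table, filters on dim and outlier spots, centring, regional and GC corrections, the median of probes, the slide as a block, slide means, the window, the size limit and leaving out each array.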

Additional observations from a re-analysis of the deposited data

Results flagged for a closer look

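Of the 34 gene values examined for 1 array far from the other 3, 4 had a gap to the nearest array that exceeded Dixon's 95% critical value of 0.83, as a share of the range. Chance gives about 1 in 20 such groups. For F2 the share was 0.837, with replicate 4 at -0.34 and the others between -0.21 and -0.19. For F5 it was 0.857, with replicate 1 at 0.59 and the others between 0.47 and 0.49. F10 reached 0.897, with replicate 1 at 1.22 and the others between 1.06 and 1.07. Proc reached 0.841, with replicate 2 at -0.69 and the others between -0.52 and -0.49. None of these arrays changed the sign of its gene's mean when left out. Fga and Fgg, whose arrays divide by slide, were not among the 4.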

How the results depend on the processing

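Serpinc1 kept its direction and its call against the pool under every alternative run, at 0.30 to 0.61. Of the 6 genes, 3 were called against the pool, and 1 to 3 when each replicate was left out in turn. Over all genes the calls were 7236, and 5464 to 5974 with a replicate left out. Of the 9 probes, 4 were called, and 1 to 4 with a replicate left out. Leaving out a replicate moved Fga between 0.44 and 0.79, and Fgg between 0.48 and 0.70. With slide means as 2 samples Fga stayed at 0.63 with an adjusted p of 0.0510. Slide as a random block changed no member's call (consensus correlation 0.041). F2 became called at -0.29 with normexp, -0.25 with probes well above background only and -0.26 when centred on the mode. With normexp Fgb and its probe took the other sign (-0.15), as did Kng1 (-0.041) and its probe with the higher coordinates (-0.15). Against the surroundings 5 were called. The count was 3 with the deposited table, GC correction, slide means, and windows of 50 kb and 250 kb. It was 4 with normexp, 1 at a size limit of 0.5, and 1 to 3 with a replicate left out. Leaving member names, or list and liver plasma protein names, out of the surroundings gave 6. Without member names, an alternative chosen after seeing the data, 32.7% of 20037 genes were called. Fga and Fgg were then set against the same probes, and Fgb shared the Plrg1 probes with them. The calls of the fibrinogen genes are therefore not independent. Fgb against its surroundings took the other sign with normexp (-0.082), probes well above background (-0.064) and 50 kb (-0.064), and ranged from -0.032 to 0.136 with a replicate left out. Between slides no member was called under any alternative, while uncalled members took the other sign as follows: Fgb (-0.015 to 0.097) and F2 (-0.14 to 0.015) with a replicate left out, F2 with normexp (0.016) and Kng1 in the deposited table (0.042). At a size limit of 0.5, calls fell to 2383 of all genes, against 7236, and to 15 of the list, against 29. The hepatocyte genes other than the members had 9 to 12 called higher in the other settings and 7 at 0.5. The share of calls above the pool was 38.9% to 48.1%, against 45.6% in the main setting. The cause of these changes was not tested. No paired analysis was possible because there was 1 sample group. All arrays shared the pool as comparison, dyes were not swapped, and Fga, Fgb and Fgg rest on 1 probe each, so no second probe could be set beside them.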
